A study of Homo sapiens with 43 samples.

Results

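The guanylate-binding protein genes GBP1, GBP2, GBP3, GBP4 and GBP5 were followed through every library of the series. They were chosen by symbol, from the Ensembl identifiers in the files (GBP1 ENSG00000117228, GBP2 ENSG00000162645, GBP3 ENSG00000117226, GBP4 ENSG00000162654 and GBP5 ENSG00000154451), and are 5 of the 58780 genes listed. RNA sequencing of polyadenylated transcripts gave 43 libraries in 22 groups: 39 libraries of GM12878, a human B-lymphoblastoid line that carries Epstein-Barr virus, and 4 of HepG2, a human liver tumour line. In the first GM12878 experiment, the panel, cells spent 6 h with 1 of 6 agents or with a vehicle, which was DMSO or PBS. The agents were interferon gamma (IFNg, 100 ng/mL), the glucocorticoid dexamethasone (Dex, 500 nM), doxorubicin (Dox, 500 nM), the cytokine TNF (tumour necrosis factor, 25 ng/mL), bacterial lipopolysaccharide (LPS, 10 ng/mL) and interleukin 2 (IL2, 50 U/mL). Dox had a single library and every other panel condition had 2. In the second, the pretreatment experiment, GM12878 cells received BRM014 (10 µM) or DMSO for 30 min and were then given IFNg, Dex or vehicle (Veh). They were taken 1 h or 6 h later, which makes 12 groups of 2 libraries. HepG2 cells received BRM014 (10 µM) or DMSO for 24 h, with 2 libraries each. BRM014 blocks both ATPases of the BAF (SWI/SNF) chromatin remodellers, SMARCA4 and SMARCA2. The labels do not say whether replicate libraries came from separate cultures, so p-values measure the spread between these libraries, which may be technical.

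Guanylate-binding proteins are large GTPases of the dynamin superfamily and are among the proteins that interferon gamma raises most in human cells. Interferon gamma acts through the receptor chains IFNGR1 and IFNGR2 and the kinases JAK1 and JAK2, whose signal reaches gamma-activated sites (GAS) in DNA and induces the transcription factor IRF1, which binds interferon-stimulated response elements (ISRE). Inside cells the proteins gather on bacteria and on the vacuoles that hold them, and help caspases and inflammasomes respond. GBP1 is farnesylated and starts the coat on Gram-negative bacteria by binding their lipopolysaccharide. GBP2 and GBP5 carry a geranylgeranyl anchor, and GBP5 also resides at the Golgi, where it lowers furin activity and the infectivity of HIV. GBP3 and GBP4 lack such an anchor and join coats that GBP1 has begun.

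The 5 genes lie in 1 cluster on chromosome 1, all on the minus strand, over 266.2 kb (GENCODE 44 on hg38). GBP7, a further family gene, lies between GBP2 and GBP4, and its span overlaps that of GBP2. GBP3 spans chr1:89006679-89022894, GBP1 spans chr1:89051882-89065360 and GBP2 spans chr1:89106132-89150456. GBP4 spans chr1:89181144-89198942 and GBP5 spans chr1:89256189-89272860. Of the 5, RefSeq's promoter table (GRCh38.p14, 250 bases before to 50 after each start) held GBP1, GBP3 and GBP4. A script searched these on both strands for the ISRE letters (GAAA, any 2 bases, GAAA), the GAS letters (TTCNNNGAA), the AP-1 letters (TGANTCA) and the glucocorticoid response letters (AGAACA, any 3 bases, TGTTCT). The ISRE letters were in 3 of 3 member promoters, against 3.57% of all 35116 promoters in the table. The 30-base windows below, read 5′ to 3′ on the minus strand with the ISRE match in capitals, are shown because these letters are what the 3 promoters share.
GBP1, chr1:89065316-89065345: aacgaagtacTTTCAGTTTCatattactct
GBP3, chr1:89022845-89022874: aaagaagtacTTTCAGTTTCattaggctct
GBP4, chr1:89198927-89198956: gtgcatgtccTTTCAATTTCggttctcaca
The match began 127 bases before the RefSeq start of GBP1, at base 3 of the GBP3 transcript and 4 bases before the start of GBP4. By GENCODE 44 each of these windows overlaps an exon of its own gene. The GBP1 and GBP3 windows lie wholly within the gene spans given above. GBP1 and GBP3 had an unbroken run of 19 bases in common, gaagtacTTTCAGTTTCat, while the longest run that either shared with GBP4 was 9 bases for GBP1 and 8 for GBP3 and did not hold the match. GBP3 alone also held the GAS letters (7.66% of all promoters) and the AP-1 letters (7.71%), in a stretch just upstream, shown with the GAS match in capitals. The matches themselves do not overlap, though the stretch shown runs on into the first bases of the ISRE match.
GBP3, chr1:89022863-89022892: tactgagtcacTTCCTTGAAagaagtactt
The glucocorticoid response letters were in none of the 3 windows and in 1 of the 35116. These are matches of letters in short windows, described as such.

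Values below are CPM, the RSEM expected counts scaled to library size with TMM factors within each experiment. A gene is said to have risen or fallen where edgeR's quasi-likelihood test gave a Benjamini-Hochberg adjusted p under 0.05 over all genes of that comparison. Where the libraries of 1 group all lie beyond those of another, this describes those libraries and is no test. The share of all genes that separate so was not computed. Depth was 14.2 to 22.9 M counts in the panel, 12.9 to 22.3 M in the pretreatment experiment and 3.06 to 19.9 M in HepG2. Of 8 B cell markers 8 were above 1 CPM in GM12878, with a summed level of 1040 to 2160 CPM, against 0.338 to 3.1 CPM in HepG2, where CR2, EBF1, MS4A1 and PAX5 were at 0. Of 8 hepatocyte markers the summed level was 17700 to 29200 CPM in HepG2 and 1.47 to 3.97 CPM in GM12878. In GM12878 the T cell, myeloid and fibroblast lists summed to at most 4.49, 9.62 and 20 CPM, and in HepG2 to at most 1.39, 2920 and 86.6 CPM, where 2 of 4 myeloid markers were above 1 CPM. Reads of these paralogs were assigned with little doubt: the posterior SD that RSEM gives for a count was 0 in all 43 libraries for GBP1, GBP3 and GBP5, above 0 in 4 libraries for GBP2 (at most 0.28 counts) and in 1 for GBP4 (0.03), while 21.7% of 21747 genes with at least 20 counts in all had one above 0 in some library. The antisense transcript over GBP5 drew 0 counts and that at the start of GBP4 at most 10 counts per library, while an antisense transcript that GENCODE places within GBP2 (ENSG00000286802) was not analysed here.

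Without IFNg, Dex, Dox or BRM014 the genes were expressed in GM12878, over the ranges that follow. GBP4 ran from 29.8 to 39.1 CPM, with a median of 35.8, over the 14 libraries given vehicle, TNF, LPS or IL2 and no BRM014. Over the same libraries GBP1 ran from 27.7 to 38.2 CPM (median 29.1) and GBP2 from 23.2 to 31.5 CPM (median 26.2). GBP3 ran from 5.08 to 7.64 CPM (median 6.25) and GBP5 from 4.34 to 7.33 CPM (median 5.85). Between genes, levels were compared only per length, as the deposited TPM. In the 4 panel vehicle libraries GBP2 averaged 16.7 ± 1.4 TPM and GBP1 15.4 ± 0.53 TPM (SD, n = 4), ranges that overlap. GBP4 followed with 9.91 ± 0.21 TPM, then GBP3 with 4.43 ± 0.60 TPM and GBP5 with 3.32 ± 0.42 TPM (SD, n = 4), and these 3 ranges were separate from each other and from those of GBP1 and GBP2.

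IFNg for 6 h raised all 5 genes in the panel. GBP1 had 276 and 279.6 CPM in the IFNg libraries, against 31.9 and 27.7 CPM with DMSO and 28.1 and 27.8 CPM with PBS. GBP4 had 503 and 520.1 CPM with IFNg, against 36.0 and 35.7 CPM with DMSO and 29.8 and 34.3 CPM with PBS. GBP5 had 121 and 116 CPM with IFNg, against 7.21 and 6.47 CPM with DMSO and 5.29 and 5.40 CPM with PBS. Both IFNg libraries lay far above every vehicle library for these genes, and the same held for the smaller rises of GBP2 and GBP3. GBP2 had 169 and 162 CPM with IFNg, and 23.4 to 27.95 CPM in the 4 vehicle libraries. GBP3 had 23.7 and 24.6 CPM with IFNg, and 5.63 to 7.05 CPM in the vehicle libraries. Relative to the mean of both vehicles, log2 fold changes ran in the order GBP5 (4.29 ± 0.08, SE), GBP4 (3.91 ± 0.04), GBP1 (3.27 ± 0.05), GBP2 (2.64 ± 0.06) and GBP3 (1.93 ± 0.10). The highest adjusted p of the 5 was 2.4e-16, for GBP3. The call was higher in 5 of 5 members, beside 7.11% of all 15775 genes tested, whose median log2 fold change was -0.01. By rank of fold change GBP5 was number 14 and GBP4 number 20 of all genes tested, and GBP3 number 83. All 5 were called in each of the 13 other settings tried for this comparison. Levels per length in IFNg cells had another order than in vehicle cells. GBP1 reached 146 ± 3.7 TPM and GBP4 128 ± 1.6 TPM, then GBP2 99.2 ± 3.5, GBP5 64.1 ± 2.4 and GBP3 12.8 ± 2.0 TPM (SD, n = 2), and no ranges of neighbours in this order overlapped.

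**Figure D1:**
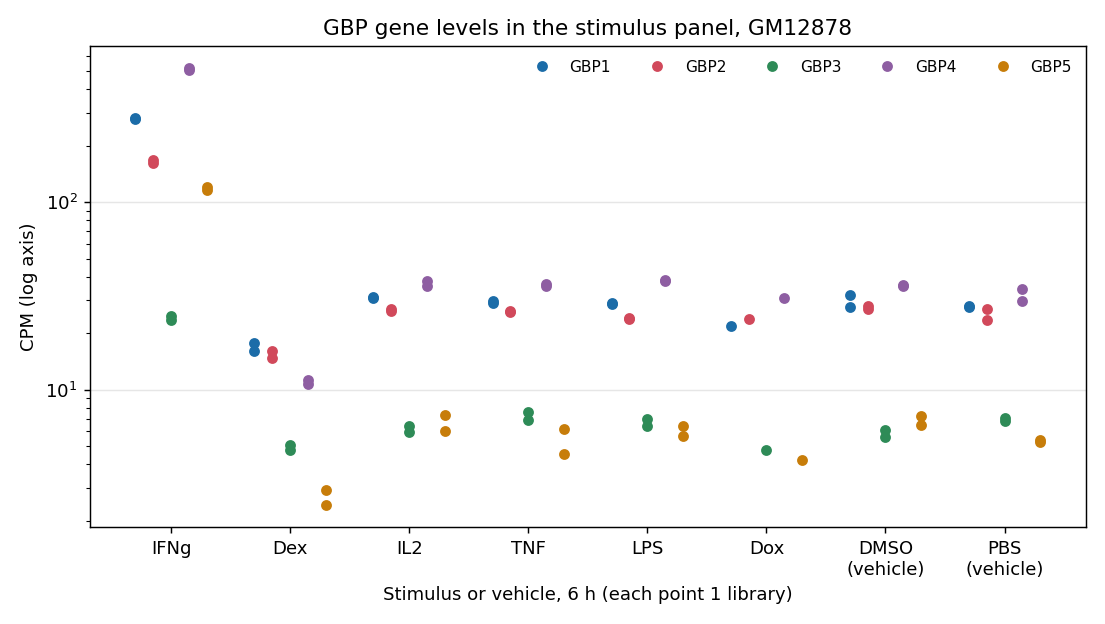
CPM (log axis) of each member in every panel library, by stimulus or vehicle at 6 h, with 1 point per library. The IFNg libraries lie above all others for every gene (GBP4 at 503 and 520.1 CPM) and the Dex libraries lie lowest for GBP1, GBP2, GBP4 and GBP5, while the IL2, TNF and LPS points sit among those of the vehicles or close to them.

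The rise within the cluster was set beside that of its neighbours and of the pathway that leads to it. GBP6, the family member beyond GBP5 on the plus strand, held 329 counts in all 43 libraries. It had 18 and 24 counts with IFNg, against 4 and 10 with DMSO and 13 and 18 with PBS. It was called higher by 1.28 ± 0.42 (log2, adjusted p = 0.041), while DMSO over PBS was itself at -1.31 (not called). In DMSO-pretreated cells given IFNg for 6 h, GBP6 was at 0.30 and was not called. Its counts there were 7 and 14, against 5 and 17 with vehicle. GBP7, between GBP2 and GBP4, held 9.04 counts in all and the pseudogene GBP1P1 held 9, and neither was tested. Of 10 genes next to the cluster 9 were tested and 2 rose: RBMXL1 by 0.60 ± 0.09 (adjusted p = 2.3e-06) and KYAT3, an aminotransferase, by 0.30 ± 0.07 (adjusted p = 0.0036). The median log2 fold change of the 9 was 0.09. Of 18 genes from the receptor to IRF1, 13 rose and IFNGR1 fell, with a median of 0.73. The smallest adjusted p-values were those of IRF1 (log2 fold change 2.53 ± 0.04), the signal transducer STAT2 (1.24 ± 0.04), the B cell and myeloid regulator IRF8 (0.90 ± 0.04) and SOCS3, a feedback inhibitor of cytokine signalling (1.93 ± 0.08). The list of known IFNg response genes rose in 30 of 30 tested, with a median of 1.01. It was led by the chemokine CXCL9 (5.35 ± 0.07), the tryptophanyl-tRNA synthetase WARS1 (2.39 ± 0.04), the ubiquitin-like UBD (3.48 ± 0.06) and the peptide transporter TAP1 (1.89 ± 0.04). This and the other gene lists were chosen with earlier results of these data known, so their counts are not independent of the data.

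**Figure D2:**
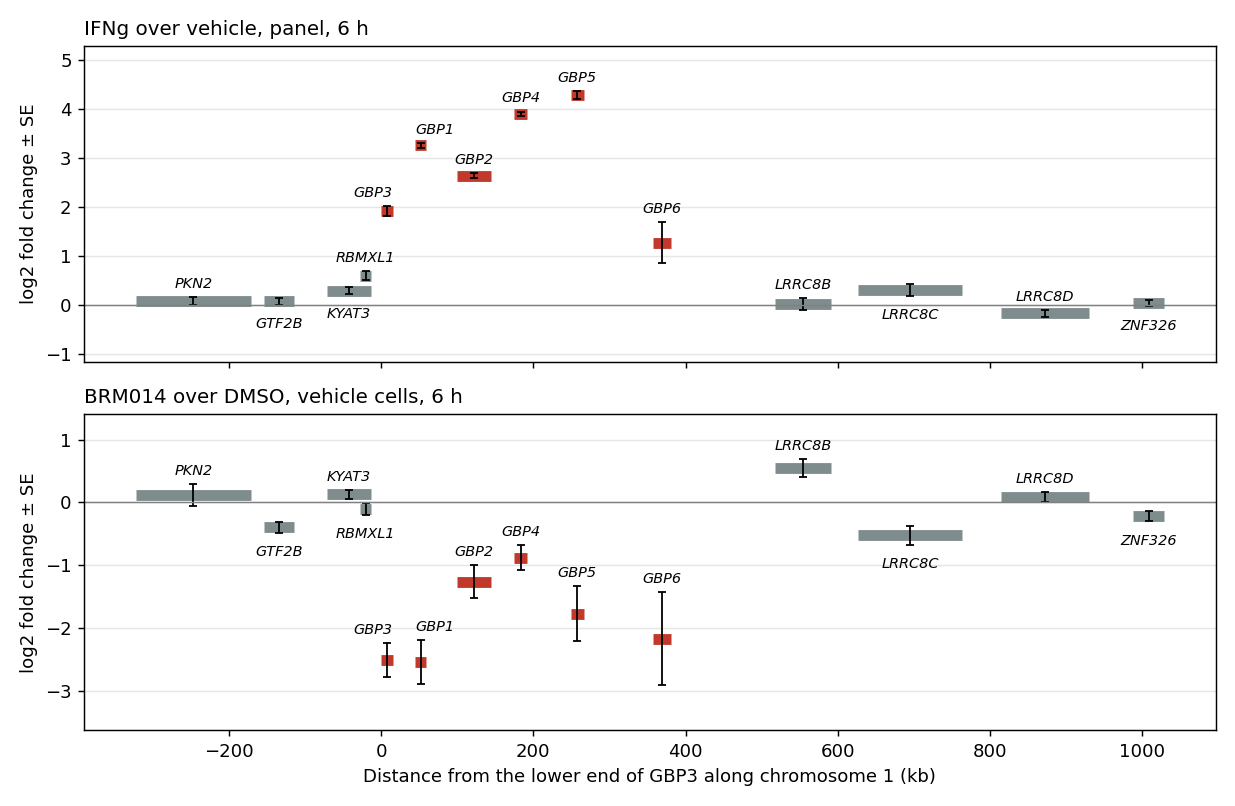
Log2 fold change ± SE (edgeR) of the family and of neighbours tested within the stretch drawn, against place along chromosome 1, in kb from the lower end of GBP3, for IFNg over vehicle in the panel (top) and BRM014 over DMSO in vehicle cells at 6 h (bottom). Bars span the genes, red for guanylate-binding protein genes and grey for their neighbours. Of the neighbours RBMXL1 had the highest IFNg value, 0.60, against 1.93 to 4.29 for GBP1 to GBP5. The red bar of GBP6, at 1.28, rests on at most 24 counts in a library.

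Genes that act with guanylate-binding proteins in defence of the cell rose in 15 of 24 tested, and 2 fell (PYCARD and IL1B). APOL6 (2.67 ± 0.05), APOL2 (1.53 ± 0.06) and APOL1 (1.13 ± 0.05) are apolipoprotein L genes, of which APOL3 works as a detergent on bacteria that GBP1 has coated, and UBE2L6 (1.39 ± 0.05) encodes the enzyme that conjugates ISG15. PYCARD encodes the inflammasome adaptor and IL1B the cytokine interleukin 1 beta. Among other interferon-inducible or related GTPases 5 of 9 rose: RNF213 (1.22 ± 0.05), MX1 (0.45 ± 0.06), GVINP1 (0.46 ± 0.08), MX2 (0.36 ± 0.08) and ATL3 (0.19 ± 0.06), each by less than any of GBP1 to GBP5. The enzymes that attach and process the lipid anchor, CaaX prenylation enzymes FNTA, FNTB, PGGT1B, RCE1, ICMT and ZMPSTE24, were called in 0 of 6, with a median of 0.01, and FNTB and PGGT1B had an unadjusted p under 0.05.

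Dex for 6 h lowered the same genes. GBP4 had 10.7 and 11.4 CPM in the Dex libraries, against 36.0 and 35.7 CPM with DMSO and 29.8 and 34.3 CPM with PBS. GBP5 had 2.42 and 2.91 CPM with Dex, against 5.29 to 7.21 CPM in the vehicle libraries. GBP1 had 17.7 and 16.1 CPM with Dex, against 27.7 to 31.9 CPM with vehicle. In each case both Dex libraries were below every vehicle library, and this held for GBP2 (14.9 and 16.1 CPM with Dex, 23.4 to 27.95 CPM with vehicle) and by a small gap for GBP3 (4.78 and 5.05 CPM with Dex, 5.63 to 7.05 CPM with vehicle). The log2 fold changes were -1.62 ± 0.08 for GBP4, -1.17 ± 0.15 for GBP5, -0.78 ± 0.07 for GBP1, -0.76 ± 0.08 for GBP2 and -0.36 ± 0.13 for GBP3 (SE; adjusted p at most 6.6e-10 for GBP1, GBP2 and GBP4, 2.7e-07 for GBP5 and 0.037 for GBP3). The call was lower in 5 of 5, beside 12.7% of all genes tested. The call of GBP3 was lost in 9 of 13 other settings, among them DESeq2 (adjusted p = 0.18) and the fit without Dex replicate 1 (0.19), whereas GBP1, GBP2, GBP4 and GBP5 were called in all 13. IFNg and Dex share their vehicle libraries, so the 2 sets of values are given side by side only.

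Markers of the glucocorticoid response and of the IFNg pathway moved in the same Dex libraries. Known glucocorticoid-induced genes, a list also chosen with earlier results known, rose in 6 of 6 tested, among them TSC22D3 (4.30 ± 0.05) and FKBP5 (2.81 ± 0.04). Of the 18 genes from receptor to IRF1, 7 fell and 7 rose, with a median of -0.08. IFNGR1 fell (-0.64 ± 0.04), as did IRF1 (-0.70 ± 0.05), while SOCS1, an inhibitor of JAK kinases, rose (1.35 ± 0.08), and so did IFNGR2 (0.37 ± 0.05). The IFNg response list fell in 17 and rose in 3 of 30, with a median of -0.26. GBP6 was called lower, by -1.65 ± 0.61 (adjusted p = 0.043), on 3 counts in each Dex library. Its 0.191 and 0.143 CPM with Dex overlapped the 0.182 and 0.498 CPM with DMSO and lay below the 0.917 and 0.783 CPM with PBS, and DMSO over PBS was itself at -1.31 (not called). Among partner genes 8 fell and 4 rose of 24, with IL1B (-2.86 ± 0.23), APOL6 (-0.84 ± 0.07) and APOL3 (-1.16 ± 0.10) among the clearest. Whether these changes bear on those of GBP1 to GBP5 was not tested.

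The other panel stimuli gave no call. With LPS, the bacterial ligand of GBP1, GBP1 had 28.7 and 28.9 CPM and GBP4 had 38.4 and 37.8 CPM. With TNF, GBP1 had 29.1 and 29.9 CPM and GBP5 had 6.15 and 4.55 CPM. With IL2, GBP1 had 30.8 and 31.4 CPM and GBP5 had 6.03 and 7.33 CPM. These values fell among those of the vehicle libraries or within a few CPM of them. No member was called for LPS, TNF or IL2 by edgeR, beside 0%, 0.019% and 0.203% of all genes, and none by DESeq2. At an unadjusted p under 0.05 there was 1 member, GBP4 with LPS (0.16 ± 0.06), and 0 for TNF and IL2. The log2 fold changes of the members lay between -0.14 and 0.16 for LPS, -0.19 and 0.19 for TNF and -0.04 and 0.14 for IL2, with SEs of 0.06 to 0.13. The 2 vehicles also gave no member call against each other (DMSO over PBS -0.24 to 0.36, beside 0.437% of all genes), with GBP4 and GBP5 at an unadjusted p under 0.05 and none called by DESeq2. The single Dox library, which has no replicate check, held 21.8 CPM of GBP1, 23.9 of GBP2, 4.79 of GBP3, 30.8 of GBP4 and 4.20 of GBP5. Its log2 ratios to the vehicle mean, on CPM plus 1, were -0.39, -0.13, -0.35, -0.13 and -0.45 in that order, where all genes had a median of -0.01 and 2.64% lay below -0.5.

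The pretreatment experiment asked how the IFNg and Dex responses run when the BAF ATPases are blocked. One pair of its libraries differed for these genes and touches many of the tests. DMSO-pretreated cells given IFNg for 6 h had 126 CPM of GBP1 in replicate 1 and 251 CPM in replicate 2, a difference of 0.98 in log2(CPM + 1). That difference was 0.79 for GBP2, 0.69 for GBP5, 0.60 for GBP4 and 0.24 for GBP3. The IFNg response list differed between the same 2 libraries by a median of 0.11, and 23 of its 29 genes were higher in replicate 2. The chemokines CXCL9 (1.83) and CXCL10 (1.67) differed by more than any member. The summed level of GBP1 to GBP5 was 631 and 1036 CPM in replicates 1 and 2, and 1093 and 1102 CPM in the panel IFNg libraries, so replicate 1 stood lower than the other three. Replicate 1 was also the shallowest GM12878 library, at 12.9 M counts. The part of depth or of this library in the results was not tested beyond the fits without it. In all other groups of GM12878 the 2 replicates differed by at most 0.56 (log2(CPM + 1)) for any member. All 12 groups share 1 estimate of each gene's spread, so this pair widens the SEs of comparisons that do not use it, and those are also given without it. Leaving the pair out was chosen after seeing that these members differ in it, which narrows their spread by choice. Calls gained only in those fits are therefore no added support, and the share of all genes called there is not given.

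**Figure D3:**
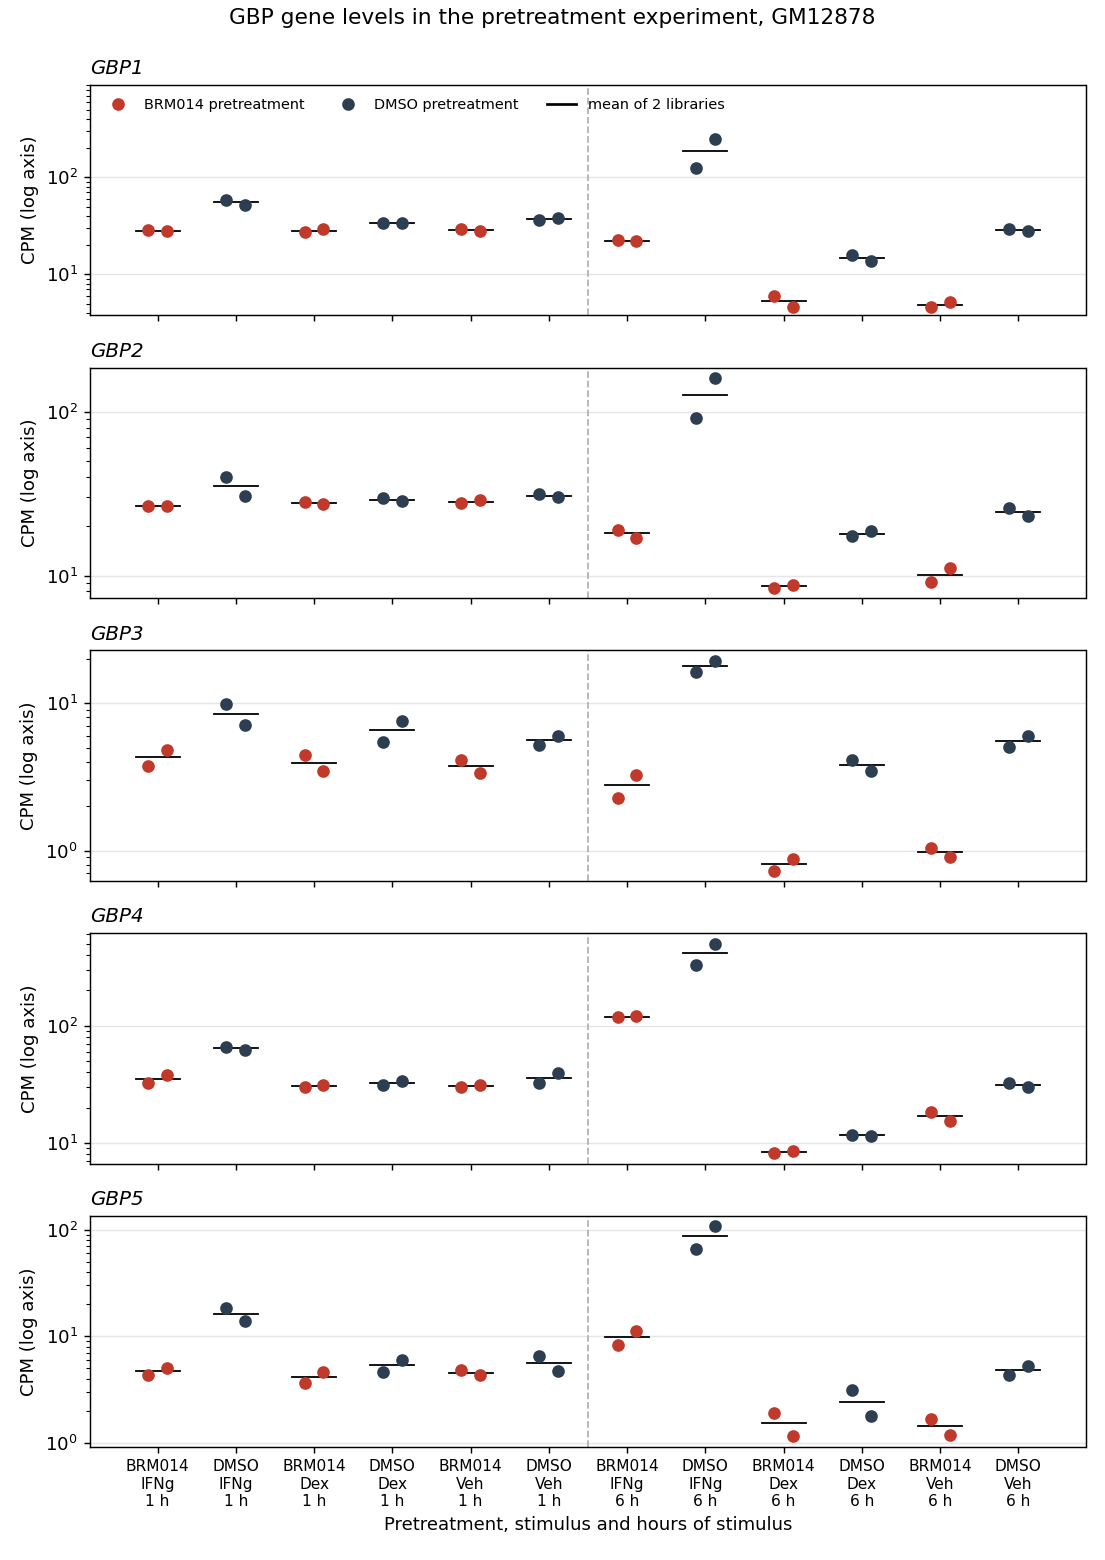
CPM (log axis) of each member in every pretreatment library, 1 point per library with the mean of 2 as a line, BRM014 in red and DMSO in dark blue, 1 h left and 6 h right of the dashed line. At 6 h the BRM014 points lie below the DMSO points of the same stimulus, except for GBP5 with Dex, where 1.89 and 1.16 CPM with BRM014 overlap 3.11 and 1.78 CPM with DMSO. At 1 h the gap between BRM014 and DMSO points is widest with IFNg, on the log axis, for every gene.

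In DMSO-pretreated cells the rise with IFNg was under way at 1 h for part of the family. GBP5 had 18.4 and 13.9 CPM with IFNg for 1 h, against 6.58 and 4.71 CPM with vehicle. GBP4 had 66.2 and 62.1 CPM with IFNg, against 32.8 and 39.1 CPM with vehicle. GBP1 had 59.1 and 51.9 CPM with IFNg, against 36.4 and 38.2 CPM with vehicle. GBP3 had 9.83 and 7.09 CPM against 5.16 and 6.00 CPM, and GBP2 had 40.0 and 30.6 CPM against 31.5 and 30.0 CPM. For GBP2 the ranges overlapped. For the others both IFNg libraries were above both vehicle libraries, with no share of all genes to set beside this. GBP5 rose by 1.54 ± 0.28 (log2, adjusted p = 0.022) and GBP4 by 0.84 ± 0.17 (adjusted p = 0.047), which made 2 of 5 members, beside 0.435% of all genes. GBP1 (0.58 ± 0.24), GBP3 (0.61 ± 0.19) and GBP2 (0.21 ± 0.21) were not called. In the fit without both DMSO IFNg 6 h libraries the values stayed and the SEs shrank by that choice (GBP1 0.58 ± 0.08). No added call is read from it. The count of 2 fell to 0 without vehicle replicate 1 or 2 or IFNg replicate 1 of this comparison, and to 1 without IFNg replicate 2. In the same libraries IRF1, IRF8, BATF2, SOCS3 and SOCS1 rose among the 18 pathway genes, and 7 of 29 response genes rose.

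By 6 h all 5 had risen in DMSO-pretreated cells. GBP4 had 329.5 and 498 CPM with IFNg, against 32.7 and 29.9 CPM with vehicle. GBP5 had 66.3 and 107 CPM with IFNg, against 4.34 and 5.29 CPM with vehicle. GBP1 had 126 and 251 CPM with IFNg, against 29.2 and 28.3 CPM with vehicle. GBP2 had 92.2 and 161 CPM with IFNg, against 26.0 and 23.2 CPM with vehicle, and GBP3 had 16.3 and 19.3 CPM against 5.08 and 5.96 CPM. Even the lower replicate was far above both vehicle libraries. Their log2 fold changes had the order of the panel: GBP5 4.16 ± 0.26, GBP4 3.73 ± 0.16, GBP1 2.72 ± 0.24, GBP2 2.38 ± 0.20 and GBP3 1.68 ± 0.18 (SE, adjusted p at most 7.3e-06). The call was higher in 5 of 5, beside 3.47% of all genes. Without replicate 1 of the IFNg group the log2 fold change of GBP1 was 3.13, and without replicate 2 it was 2.14. These fits leave 1 library in that group, so they do not measure its spread. In a fit of the 4 compared libraries alone 3 were called, and GBP1 (adjusted p = 0.29) and GBP2 (0.20) were not.

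The response at 6 h was larger than that at 1 h for each of the 5, by the test of the difference itself. On the log2 scale the IFNg response gained 2.90 ± 0.23 in GBP4, 2.62 ± 0.41 in GBP5, 2.17 ± 0.29 in GBP2, 2.15 ± 0.34 in GBP1 and 1.07 ± 0.27 in GBP3 between the 2 times (adjusted p 8.4e-06 to 0.026). This was 5 of 5 beside 1.12% of all genes. With only the 8 libraries of this comparison in the fit, 0 of 5 were called, with adjusted p-values of 0.053 to 0.33, and the GBP3 call was lost with DESeq2 (0.086) and without any 1 of 5 libraries. Vehicle cells themselves gave no member call between 6 h and 1 h (-0.38 to -0.01, beside 1.43% of all genes), nor by DESeq2, and none was under 0.05 unadjusted.

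After BRM014, IFNg for 1 h left the genes near their vehicle level. GBP5 had 4.35 and 5.05 CPM with IFNg, against 4.79 and 4.36 CPM with vehicle, both after BRM014. GBP4 had 32.7 and 37.9 CPM with IFNg, against 30.2 and 31.3 CPM with vehicle. GBP1 had 28.6 and 27.9 CPM with IFNg, against 29.3 and 28.2 CPM with vehicle. The ranges overlapped for GBP1 and GBP5, while GBP4 was a little higher in both IFNg libraries. No member was called (-0.08 to 0.21, beside 0.105% of all genes), by edgeR or DESeq2, and none had an unadjusted p under 0.05. Other IFNg genes did rise in these libraries: IRF1 had 587 and 598 CPM with IFNg, against 69.8 and 38.4 CPM with vehicle (log2 fold change 3.46 ± 0.19, adjusted p = 8.9e-07). Of the 18 pathway genes IRF1, SOCS3 (1.55 ± 0.11), SOCS1 (1.36 ± 0.14) and IRF8 (0.49 ± 0.06) rose. Of 29 response genes the adhesion molecule ICAM1 (1.0 ± 0.08) and TAP1 (0.31 ± 0.06) rose. Set against DMSO cells with IFNg at 1 h, SOCS3, SOCS1, IRF8 and ICAM1 were also lower after BRM014, and IRF1 and TAP1 were not called. By the test of the difference, the IFNg response after BRM014 was below that after DMSO in SOCS3 and SOCS1. It was not called different in IRF1, IRF8, ICAM1 or TAP1.

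**Figure D4:**
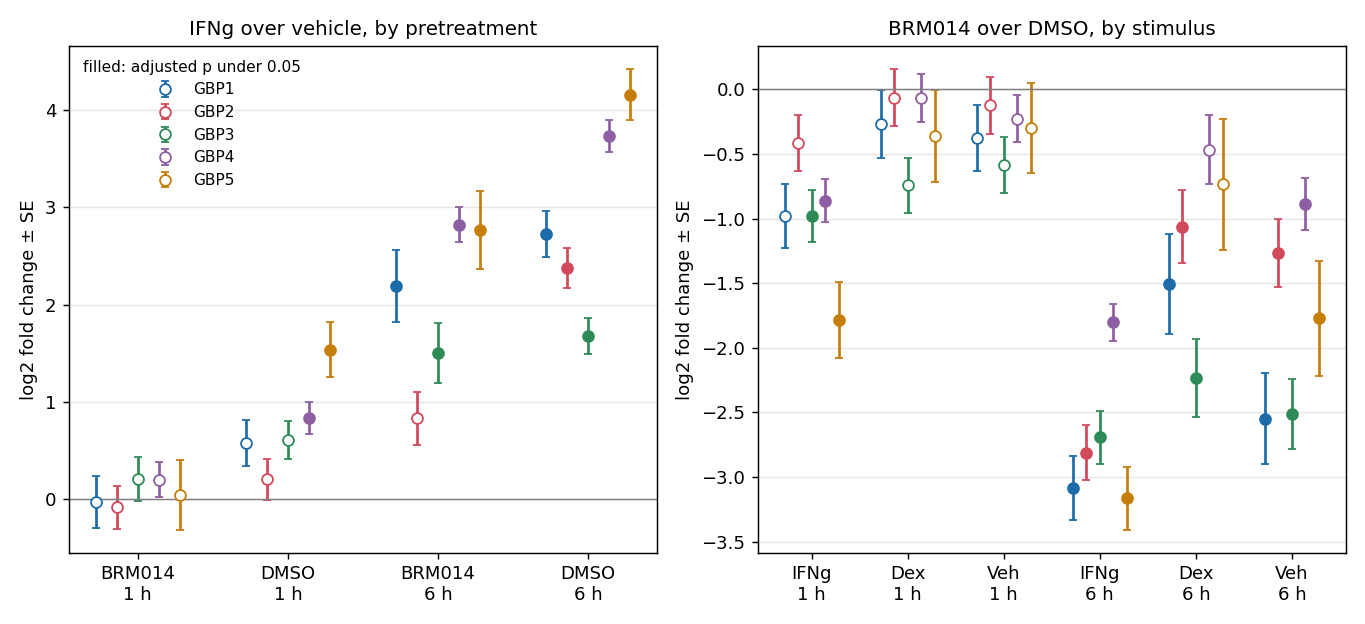
Log2 fold change ± SE (edgeR) of each member: left, IFNg over vehicle in BRM014- and DMSO-pretreated cells at 1 h and 6 h; right, BRM014 over DMSO in IFNg, Dex and vehicle cells at both times. Filled points have an adjusted p under 0.05. At 1 h the BRM014 cells lie at -0.08 to 0.21, and at 6 h GBP1, GBP3, GBP4 and GBP5 lie at 1.5 to 2.82, against 1.68 to 4.16 in DMSO cells.

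Set directly against DMSO cells, IFNg cells with BRM014 had less of these transcripts already at 1 h. GBP5 had 4.35 and 5.05 CPM with BRM014, against 18.4 and 13.9 CPM with DMSO. GBP3 had 3.76 and 4.83 CPM with BRM014, against 9.83 and 7.09 CPM with DMSO. GBP4 had 32.7 and 37.9 CPM with BRM014, against 66.2 and 62.1 CPM with DMSO. The groups were separate for each, and GBP5 fell by 1.79 (SE 0.29, adjusted p = 0.0028), GBP3 by 0.98 (SE 0.20, 0.0031) and GBP4 by 0.86 (SE 0.17, 0.013) on the log2 scale. That made 3 of 5, beside 1.58% of all genes. GBP1 (-0.98 ± 0.25, adjusted p = 0.073) and GBP2 (-0.41 ± 0.22) were not called. Without both DMSO IFNg 6 h libraries GBP1 was at -0.98 ± 0.08 and GBP2 at -0.41 ± 0.10. Their SEs shrank by the choice of that pair, so no added call is read from that fit. No call was left without BRM014 IFNg 1 h replicate 1, and 1 without DMSO IFNg 1 h replicate 1.

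Vehicle cells with BRM014 and DMSO gave no member call at 1 h. GBP1 had 29.3 and 28.2 CPM with BRM014, against 36.4 and 38.2 CPM with DMSO. GBP3 had 4.09 and 3.38 CPM with BRM014, against 5.16 and 6.00 CPM with DMSO. Both genes were lower in both BRM014 libraries, and the log2 fold changes of all 5 ran from -0.59 (GBP3, unadjusted p = 0.011) to -0.12, with no call beside 2.05% of all genes and none by DESeq2. With only the compared groups 1 member was called, and the call gained without both DMSO IFNg 6 h libraries is no added support. Dex cells at 1 h were alike in this (-0.74 to -0.06, 0 called beside 1.91% of all genes, GBP3 alone under 0.05 unadjusted, none by DESeq2). The interaction, the IFNg response after BRM014 minus that after DMSO, was negative for all 5 at 1 h, from -1.49 ± 0.46 in GBP5 to -0.29 ± 0.31 in GBP2. It gave 0 calls, beside 0.0659% of all genes and 0 by DESeq2, with GBP4 and GBP5 under 0.05 unadjusted. Without both DMSO IFNg 6 h libraries GBP1 was at -0.60 ± 0.12 and GBP4 at -0.63 ± 0.12, and calls gained there are no added support. With only the compared groups 3 members were called.

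At 6 h BRM014 lowered the family in vehicle cells. GBP1 had 4.60 and 5.16 CPM with BRM014, against 29.2 and 28.3 CPM with DMSO. GBP3 had 1.04 and 0.906 CPM with BRM014, against 5.08 and 5.96 CPM with DMSO. GBP5 had 1.69 and 1.19 CPM with BRM014, against 4.34 and 5.29 CPM with DMSO. GBP2 (9.08 and 11.2 CPM with BRM014, 26.0 and 23.2 CPM with DMSO) and GBP4 (18.4 and 15.5 CPM with BRM014, 32.7 and 29.9 CPM with DMSO) kept more. In each gene both BRM014 libraries were below both DMSO libraries, at 17.0% of the DMSO mean for GBP1, 17.6% for GBP3, 29.9% for GBP5, 41.1% for GBP2 and 54.1% for GBP4. The log2 fold changes were -2.55 ± 0.35 for GBP1, -2.51 ± 0.27 for GBP3, -1.77 ± 0.44 for GBP5, -1.27 ± 0.26 for GBP2 and -0.89 ± 0.20 for GBP4 (adjusted p 9.0e-09 to 0.0054). The call was lower in 5 of 5, beside 20.1% of all genes, and in each of 12 other settings 4 or 5 were called, the GBP5 call being lost without DMSO replicate 2 (adjusted p = 0.057) or BRM014 replicate 2 (0.058). The order of the genes was unlike that of the IFNg response, in which GBP4 and GBP5 led. In RNA from whole cultures fewer cells with a transcript and less of it per cell cannot be told apart.

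Other interferon genes and neighbours moved in the same vehicle libraries. The IFNg response list fell in 24 of 29, with a median of -0.66, led by IFIT3 (-1.68 ± 0.07), the class II transactivator CIITA (-1.36 ± 0.07), NLRC5 (-1.10 ± 0.07) and EPSTI1 (-1.0 ± 0.07). Partner genes fell in 20 of 23, and PIM1, a kinase that acts on GBP1, rose (1.86 ± 0.10). From receptor to IRF1, 12 fell and PTPN2 rose of 18, with a median of -0.31, and among them were the phosphatase PTPN6 (-1.98 ± 0.06), IRF8 (-1.02 ± 0.06) and SOCS3 (-1.39 ± 0.15). GBP6 was at -2.17 (SE 0.74, adjusted p = 0.019), on 3 and 1 counts with BRM014, against 5 and 17 with DMSO. On so few counts nothing is read from its call. Of 9 genes next to the cluster 4 fell and 1 rose, between -0.53 (LRRC8C) and 0.55 (LRRC8B), the median being -0.10. SMARCA2 fell by 0.44 (SE 0.05) and SMARCA4 rose by 0.29 (SE 0.05).

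With BRM014 and IFNg together for 6 h, GBP4 and GBP5 exceeded the level of DMSO cells given vehicle and GBP1, GBP2 and GBP3 did not. GBP4 had 118 and 119.6 CPM with BRM014, against 329.5 and 498 CPM with DMSO, both with IFNg. GBP5 had 8.37 and 11.1 CPM with BRM014, against 66.3 and 107 CPM with DMSO. GBP1 had 22.4 and 22.2 CPM with BRM014, against 126 and 251 CPM with DMSO. GBP2 had 19.1 and 17.1 CPM against 92.2 and 161 CPM, and GBP3 had 2.28 and 3.26 CPM against 16.3 and 19.3 CPM. No ranges overlapped. The levels with BRM014 and IFNg were 380% (GBP4), 203% (GBP5), 77.6% (GBP1), 73.5% (GBP2) and 50.2% (GBP3) of those with DMSO and vehicle. Against DMSO with IFNg, the log2 fold changes were -3.16 ± 0.24 for GBP5, -3.09 ± 0.25 for GBP1, -2.81 ± 0.21 for GBP2, -2.69 ± 0.21 for GBP3 and -1.80 ± 0.14 for GBP4 (adjusted p at most 4.8e-07). The call was lower in 5 of 5, beside 18.7% of all genes, and in a fit of the 4 compared libraries GBP1 was not called (adjusted p = 0.066). In these libraries the IFNg response list was lower in 28 of 29, with a median of -0.75. Of the 18 pathway genes 12 were lower, among them PTPN6 (-1.89 ± 0.06), SOCS3 (-1.99 ± 0.12) and IRF8 (-0.89 ± 0.06).

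IFNg still raised 4 of the 5 above their own vehicle level after BRM014 by 6 h. GBP4 had 118 and 119.6 CPM with IFNg, against 18.4 and 15.5 CPM with vehicle, both after BRM014. GBP5 had 8.37 and 11.1 CPM against 1.69 and 1.19 CPM, and GBP1 had 22.4 and 22.2 CPM against 4.60 and 5.16 CPM. GBP3 had 2.28 and 3.26 CPM with IFNg, against 1.04 and 0.906 CPM with vehicle, and GBP2 had 19.1 and 17.1 CPM against 9.08 and 11.2 CPM. The IFNg libraries were above the vehicle libraries in each gene, with no share of all genes to set beside this. The log2 fold changes were 2.82 ± 0.18 for GBP4, 2.76 ± 0.40 for GBP5, 2.19 ± 0.37 for GBP1, 1.5 ± 0.31 for GBP3 and 0.83 ± 0.27 for GBP2 (adjusted p = 0.26 for GBP2 and at most 0.0056 for the others). The call was higher in 4 of 5, beside 1.5% of all genes. The GBP1 and GBP3 calls were lost without BRM014 vehicle 6 h replicate 2. Without both DMSO IFNg 6 h libraries GBP2 was at 0.83 ± 0.12, and a call gained there is no added support. The response exceeded that at 1 h in GBP4 (by 2.62 ± 0.26), GBP5 (by 2.72 ± 0.55) and GBP1 (by 2.21 ± 0.46), 3 of 5 beside 0.843% of all genes. Leaving out any one of 7 of the 8 libraries compared took away the GBP5 call, and leaving out any of the 8 that of GBP1 (adjusted p 0.11 to 0.24).

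Measured in CPM gained over vehicle, the response after BRM014 was a small part of that after DMSO. GBP4 gained 102 CPM with BRM014 (SE 1.55) and 383 CPM with DMSO (SE 84.3), or 26.7%. GBP3 gained 1.80 CPM with BRM014 and 12.3 CPM with DMSO, or 14.6%. The gain with BRM014 was 10.9% of that with DMSO for GBP1, 10.2% for GBP5 and 7.81% for GBP2. These shares rest on the DMSO pair that differed: the gain of GBP1 with DMSO was 160 CPM with an SE of 62.3. Leaving out DMSO IFNg replicate 2 put the share at 17.9% for GBP1, 11.8% for GBP2, 13.5% for GBP5, 16.7% for GBP3 and 34.2% for GBP4, and leaving out replicate 1 at 7.85%, 5.85%, 8.12%, 13% and 21.9% in that order. On the fold scale, where the lowered starting level counts too, the interaction at 6 h was negative for all 5. It was -1.55 ± 0.35 for GBP2 (adjusted p = 0.15), -1.39 ± 0.56 for GBP5 (0.54), -0.92 ± 0.25 for GBP4 (0.25), -0.54 ± 0.47 for GBP1 (0.83) and -0.18 ± 0.39 for GBP3 (0.94). No member was called, beside 0.198% of all genes, and GBP2, GBP4 and GBP5 were under 0.05 unadjusted. Intervals of 2 SE ran from -2.24 to -0.85 for GBP2 and from -0.96 to 0.59 for GBP3, so the fold response of GBP3 with and without BRM014 was not shown to be alike or unlike. DESeq2 called GBP2 (-1.54 ± 0.30, adjusted p = 4.9e-04) and GBP4 (-0.92 ± 0.24, 0.035). The interaction moved with the pair of DMSO IFNg 6 h libraries. Without replicate 1 it was -1.88 for GBP2, -1.18 for GBP4 and -0.94 for GBP1. Without replicate 2 it was -1.08, -0.58 and 0.053 in that order. These fits leave 1 library in that group, so no calls are read from them. The interaction at 6 h did not differ from that at 1 h by any call (0 of 5, beside 0.0263% of all genes, 0 by DESeq2, GBP2 alone under 0.05 unadjusted).

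Dex in the pretreatment experiment lowered GBP4 in both arms at 6 h. After DMSO, GBP4 had 11.8 and 11.4 CPM with Dex, against 32.7 and 29.9 CPM with vehicle. GBP1 had 16.003 and 13.6 CPM with Dex, against 29.2 and 28.3 CPM with vehicle. GBP2 had 17.3 and 18.6 CPM against 26.0 and 23.2 CPM, GBP3 had 4.14 and 3.48 CPM against 5.08 and 5.96 CPM, and GBP5 had 3.11 and 1.78 CPM against 4.34 and 5.29 CPM. Each gene was lower in both Dex libraries than in both vehicle libraries, but the share of all genes that separate so was not computed. GBP4 fell by 1.42 (SE 0.22, adjusted p = 2.8e-04) and GBP1 by 0.94 (SE 0.29, 0.045) on the log2 scale, 2 of 5 beside 7.53% of all genes. GBP5 (-0.96 ± 0.40), GBP3 (-0.53 ± 0.22) and GBP2 (-0.45 ± 0.24) were not called. Calls gained without both DMSO IFNg 6 h libraries, those of GBP2 and GBP5, are no added support. Without either Dex library or either vehicle library the GBP1 call was lost.

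After BRM014, GBP4 had 8.17 and 8.61 CPM with Dex, against 18.4 and 15.5 CPM with vehicle. It fell by 1.0 on the log2 scale (SE 0.25, adjusted p = 0.022), the 1 member of 5 called beside 4.1% of all genes, and the call was lost without Dex replicate 1 or 2 or vehicle replicate 1. GBP1 had 5.92 and 4.64 CPM with Dex, against 4.60 and 5.16 CPM with vehicle, with overlapping ranges. The log2 fold changes of the other four ran from -0.25 to 0.10. Between the arms the Dex response was not called different for any member at 6 h (0.20 to 1.05, beside 2.76% of all genes, 0 by DESeq2, 0 under 0.05 unadjusted). A call of 1 member that appeared without both DMSO IFNg 6 h libraries is no added support. At 1 h Dex gave no member call in either arm (-0.15 to 0.23 after DMSO, beside 0.606% of all genes, and -0.14 to 0.07 after BRM014, beside 0.277%), none by DESeq2 and none under 0.05 unadjusted. The difference between arms at 1 h likewise gave none (-0.16 to 0.16, beside 0.119%, none by DESeq2 and none under 0.05 unadjusted). The Dex response at 6 h was lower than that at 1 h in GBP4 after DMSO (-1.27 ± 0.28, adjusted p = 0.012), 1 of 5 beside 3.85% of all genes. Without Dex 6 h replicate 1 that call was lost. Without both DMSO IFNg 6 h libraries GBP1 was at -0.81 ± 0.13, and a call gained there is no added support. After BRM014 the GBP4 difference was -1.01 ± 0.31 (adjusted p = 0.12), and no member was called beside 3.43%. GBP4 alone was under 0.05 unadjusted, while DESeq2 called 1. The 2 arms did not differ in this by any call (0.14 to 1.10, beside 0.606%, none by DESeq2 and none under 0.05 unadjusted). In Dex cells at 6 h BRM014 lowered GBP3 (-2.23 ± 0.30), GBP1 (-1.51 ± 0.39) and GBP2 (-1.06 ± 0.28), 3 of 5 beside 20.6% of all genes, with levels at 21.2%, 35.6% and 47.7% of those with DMSO. GBP5 (-0.73 ± 0.51) and GBP4 (-0.47 ± 0.27) were not called there. Without DMSO replicate 1 or BRM014 replicate 2 the GBP1 call was lost (adjusted p = 0.060 and 0.066), without BRM014 replicate 1 that of GBP2 (0.054), and DESeq2 called GBP4 (0.042).

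HepG2 cells expressed a smaller set of the family. GBP2 had 4.25 and 4.08 CPM with BRM014 for 24 h, against 21.0 and 17.3 CPM with DMSO. GBP1 had 0.242 and 0.314 CPM with BRM014, from 5 and 1 counts, against 1.39 and 2.44 CPM with DMSO, from 13 and 40 counts. GBP3 had 5 and 0 counts with BRM014, against 5 and 7 counts with DMSO, and did not pass the filter on low counts. GBP4 and GBP5 had 0 counts in all 4 libraries, which allows up to 0.145 to 0.941 CPM in a library (3 counts). GBP2 fell by 2.17 (log2, SE 0.20, adjusted p = 2.3e-07), where 22.8% of all genes were called lower. GBP1 was at -2.92 ± 0.63 (adjusted p = 0.0013), but it passed the filter on low counts only through its DMSO libraries, so nothing is read from its call. That call was lost without DMSO replicate 2 (-2.40) or BRM014 replicate 1 (-2.62). Per length, GBP2 had 4.21 ± 0.63 TPM with BRM014 and 15.3 ± 0.75 TPM with DMSO (SD, n = 2 each), and no other member had a mean above 0.97 TPM. In the same libraries IFNg response genes fell in 10 and rose in 1 of 21, among them UBD (-5.22 ± 0.25), whereas 7 of 17 pathway genes rose and 2 fell. One BRM014 library held 3.06 M counts, the fewest of all.

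Across the 20 GM12878 groups the profiles of the members resembled each other to different degrees. On group means of log2(CPM + 1) Pearson's r was highest between GBP1 and GBP2 (0.982) and between GBP4 and GBP5 (0.962), and lowest between GBP3 and GBP4 (0.769). Of 12994 genes with a mean of at least 1 CPM, which include the 5, all but the 5 were ranked by likeness to their mean profile. The highest were UBD (0.973), WARS1 (0.970), APOL6 (0.969), FARP2 (0.966), CXCL10 (0.962), PARP9 (0.961), IFI6 (0.957) and PSME2 (0.957). Taken one by one, GBP1 was most like ACSS2, WDFY1 and CXCL10 (0.959 to 0.967), and GBP2 most like UBD, IFI6 and LAP3 (0.969 to 0.972). GBP3 was most like RSAD2, PML and DDI2 (0.959 to 0.963), GBP4 most like TRAFD1, NEXN and APOL6 (0.961 to 0.984), and GBP5 was close to UBD (0.971) and APOL6 (0.970). These are descriptions over groups that share libraries' scaling and 3 groups with IFNg at 6 h. Ranked by Spearman's rho, 1 of the 8 genes stayed among the top 8, and over the 12 pretreatment groups alone 5 did.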

How the data were processed

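Per the file headers, the deposited tables give for each gene an RSEM expected count (an estimated count, not scaled for depth or length), TPM, and a posterior mean count with its SD. Per the submitters' processing notes the tools were STAR and RSEM on hg38; versions, settings, annotation release and use of strand are not given in the sources used here. The 58780 Ensembl rows of 59526 were used (58207 with a GENCODE 44 symbol); the other 746 held 0 counts. Between 2.51% and 4.80% of the expected counts per file were not whole, and all were rounded.

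Each experiment had 1 fit in edgeR 4.0.16 (R 4.3.3) with all its groups: 15 panel libraries (15775 genes after filterByExpr, 7 residual df), 24 pretreatment libraries (15183 genes, 12 df) and 4 HepG2 libraries (13349 genes, 2 df), with TMM, robust quasi-likelihood tests, no covariates and 2-sided p-values. Panel stimuli were set against the mean of DMSO and PBS, since the labels tie no vehicle to a stimulus. Each SE was taken from the fold change and its F statistic. Alternatives were DESeq2 1.42.0, its size factors in edgeR, no filter, a block for replicate numbers, fits of the compared groups alone, each library left out, and 1 vehicle. Dox ratios and profiles used log2(CPM + 1). Leaving the DMSO IFNg 6 h libraries out of fits that do not compare them was chosen after seeing the data, as were the CPM gains without either of them. The fits were tested on simulated counts. No replicate pair agreed within sampling noise (chi-square). The 5 genes, the gene lists and the marker lists were chosen with earlier results of these data known. From each list the text names up to 4 genes with the smallest adjusted p in the comparison described, and every called one where 5 or fewer were; profiles name the 8 genes with the highest r, and 3 per member, with a mean of at least 1 CPM. IFNGR2 is named beyond this, after its values were seen, and a few genes that the rule would name are not reported here.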

Additional observations from a re-analysis of the deposited data

Results flagged for a closer look

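Responses that differed between 1 h and 6 h by the test of the difference itself are listed here (edgeR, log2, 6 h minus 1 h). After DMSO the IFNg response was larger at 6 h by 2.15 ± 0.34 in GBP1 (SE, adjusted p = 0.0043), 2.17 ± 0.29 in GBP2 (0.0015), 1.07 ± 0.27 in GBP3 (0.026), 2.90 ± 0.23 in GBP4 (8.4e-06) and 2.62 ± 0.41 in GBP5 (0.0028). After BRM014 it was larger by 2.21 ± 0.46 in GBP1 (adjusted p = 0.047), 2.62 ± 0.26 in GBP4 (7.1e-05) and 2.72 ± 0.55 in GBP5 (0.031). The Dex response after DMSO was lower at 6 h in GBP4, at -1.27 ± 0.28 (adjusted p = 0.012). As given above, these calls moved with the setting. With only the compared libraries in the fit, none of the IFNg calls after DMSO was left. Most fits without a single library lost the GBP1 and GBP5 calls after BRM014. The Dex call was lost without Dex 6 h replicate 1.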

How the results depend on the processing

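With 2 libraries a group, calls near the threshold moved with the setting, and the cause was not tested except where the alternative itself removes libraries. A fit without 1 library leaves 1 in its group, so its calls do not measure the spread of that group. All values here are counts of the 5 members called. The share of all genes called under each setting is not given beside them. These counts therefore show only how far the calls moved and are not read as results about the members. Calls gained without the DMSO IFNg 6 h libraries are no added support. With DESeq2 the IFNg interaction at 6 h had 2 and the Dex response after BRM014, 6 h minus 1 h, had 1. With no filter, IFNg at 1 h after DMSO, Dex at 6 h after DMSO and BRM014 in Dex cells at 1 h had 1 each. With only the compared groups, IFNg at 6 h after DMSO had 3, Dex at 6 h after DMSO 4, BRM014 in vehicle cells at 1 h 1, the IFNg interaction at 1 h 3, the Dex interaction at 6 h 1, and vehicle over time after DMSO 1. There the 6 h minus 1 h differences had 0 (IFNg after DMSO), 2 (Dex after DMSO), 1 (Dex after BRM014) and 1 (Dex interaction).

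Leaving out 1 library gave 0 to 3 for IFNg at 1 h after DMSO, 2 to 5 for IFNg at 6 h after BRM014, 1 to 4 for Dex at 6 h after DMSO, 0 to 1 for Dex at 6 h after BRM014, and 0 to 5 for BRM014 in IFNg cells at 1 h. It gave 0 to 1 for BRM014 in vehicle cells and in Dex cells at 1 h and for vehicle over time, 0 to 2 for the IFNg interaction at 1 h, 0 to 3 at 6 h, and 0 to 1 for the Dex interaction at 6 h. For 6 h minus 1 h it gave 1 to 4 (IFNg after BRM014), 0 to 2 (Dex after DMSO) and 0 to 1 (Dex after BRM014 and both interactions), and for HepG2 1 to 2. Without both DMSO IFNg 6 h libraries, an alternative chosen after seeing the data, the counts were 4 for Dex at 6 h after DMSO, 5 for BRM014 in IFNg cells at 1 h, 2 for the IFNg interaction at 1 h and for Dex after DMSO, 6 h minus 1 h, and 1 for BRM014 in vehicle cells at 1 h, for vehicle over time, for the Dex interaction at 6 h and for the Dex responses after BRM014 and between arms, 6 h minus 1 h.

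Signs turned in 6 single log2 values, none of them called with all libraries. Leaving out 1 library, GBP2 with IFNg at 1 h after DMSO ran from -0.0054 to 0.38, GBP1 and GBP3 in the IFNg interaction at 6 h from -0.94 to 0.053 and from -0.45 to 0.057, and GBP1 and GBP5 with Dex at 6 h after BRM014 from -0.076 to 0.28 and from -0.29 to 0.41, with -0.17 for GBP5 without vehicle replicate 2. The genes most like the family overlapped in 1 of 8 by Spearman's rho and in 5 over 12 groups.

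Same-numbered libraries did not deviate together (r at most 0.083 over all pairs of groups), so no strong shared effect of the replicate number was seen. This cannot show whether same-numbered libraries were handled together. The replicate block changed the count for Dex at 6 h after DMSO to 1 and moved no other by over 1.5 times. Counts at or under 5 (GBP1 and GBP3 in HepG2 with BRM014, GBP6 with Dex and with BRM014) limit what those libraries can show.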
